A study of Homo sapiens with 4 samples.

Results

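Azurophil granules are the first granules that a developing neutrophil or monocyte makes, and they are packed with proteases, antimicrobial proteins and myeloperoxidase. The genes for these cargo proteins are switched on together at the promyelocyte stage and shut down as the cells mature. Described here are 10 genes for such myeloid granule and secreted proteins: the serine proteases ELANE, PRTN3 and CTSG, the protease-like antimicrobial protein AZU1, the peroxidase MPO, the ribonucleases RNASE2 and RNASE3, the complement protease CFD, lysozyme (LYZ), and SRGN, the core protein of the proteoglycan that holds granule cargo. They were chosen by name, and all 10 were found among the 59533 genes of the deposited table that are listed under a single symbol, and among the 23440 of these with THP-1 values.

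RNA sequencing was done on 4 libraries, 1 for each of 4 groups. THP-1 is a leukaemia line of monocytic type and HCC1937 derives from a breast carcinoma. By the labels all 4 groups share 1 engineered genotype, and cells without it were not analysed here. Each line was sequenced untreated and after decitabine (DAC), a deoxycytidine analogue that traps DNA methyltransferases and so lowers DNA methylation. DAC was given at 0.3 µM over 5 days to HCC1937 and at 5 µM over 2 days to THP-1, so line, dose and time differ together and cannot be told apart. FPKM is the number of fragments scaled to gene length and to the counted reads of the library, so levels can be compared between genes. The spacing of the values puts depth at 18.7 M to 19.7 M counted reads a library. Each group being a single library, replicate spread is unknown and differences inside a line carry no p-value; each interval below is an exact 95% interval that covers counting error only.

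Marker genes were read against the line labels. Of 20 epithelial markers, all 20 reached 1 FPKM in both HCC1937 libraries and 4 or 5 did in the THP-1 libraries. Of 20 monocytic and progenitor markers, 18 and 19 reached it in untreated and DAC-treated THP-1, against 2 and 6 in HCC1937. Of 10 neutrophil markers, 2 reached 1 FPKM in each THP-1 library. These were S100A12 (6.84 FPKM untreated and 7.32 with DAC) and CXCR2 (5.66 and 6.17), while CEACAM8 and FCGR3B were listed at 0. In HCC1937, 0 of the 10 reached it untreated and 2 with DAC, ALPL (0.77 and 5.32) and CAMP (0 and 2.94).

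AZU1, PRTN3, ELANE and CFD lie side by side on chromosome 19, all on the forward strand, within 38.5 kb (19:825097-863630, hg38, GENCODE 29). RNASE3 (14:20891399-20892348) and RNASE2 (14:20955452-20956436) are neighbouring duplicate genes. CTSG lies on chromosome 14 (24573522 to 24576260), MPO on chromosome 17 (58269856 to 58280935), SRGN on chromosome 10 (69088106 to 69104811) and LYZ on chromosome 12 (69348341 to 69354234). RefSeq promoter windows (GRCh38.p14, 250 bases before to 50 after the start) were at hand for 6 of the 10 and not for ELANE, MPO, SRGN or LYZ. The 150 bases upstream of the first annotated exon base are shown for the 3 cluster genes with a window, because AZU1 was the most abundant member in both THP-1 libraries, PRTN3 moved most there and CFD moved in HCC1937, with CG dinucleotides, the sites of DNA methylation, in capitals. They contain no annotated exon base. The AZU1 stretch (chr19:827686-827835) is intronic to a longer AZU1 transcript that starts further upstream, and the PRTN3 (chr19:840810-840959) and CFD (chr19:859493-859642) stretches overlap no annotated gene.
AZU1: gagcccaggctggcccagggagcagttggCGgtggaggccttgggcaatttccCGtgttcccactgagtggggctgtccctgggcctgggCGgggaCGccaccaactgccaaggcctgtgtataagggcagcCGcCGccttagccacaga
PRTN3: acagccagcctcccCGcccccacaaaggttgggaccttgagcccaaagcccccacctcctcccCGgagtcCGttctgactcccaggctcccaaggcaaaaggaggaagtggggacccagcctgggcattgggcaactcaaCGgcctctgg
CFD: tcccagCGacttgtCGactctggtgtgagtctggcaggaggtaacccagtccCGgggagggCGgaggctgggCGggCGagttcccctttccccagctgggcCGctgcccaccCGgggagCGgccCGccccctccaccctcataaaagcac
The CFD stretch holds 10 CG dinucleotides, the AZU1 stretch 6 and the PRTN3 stretch 4. Over the whole 300-base windows the count was 13 for CFD, 9 for AZU1, 9 for PRTN3, 5 for RNASE3, 3 for RNASE2 and 3 for CTSG, against a median of 14 over 35116 promoters. None of the 6 windows therefore lies above the median promoter in CG count.

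The ribonuclease pair is shown because its upstream sequences are close copies while its RNA levels are far apart. Capitals mark bases that differ or have no partner in the alignment. The RNASE2 stretch is chr14:20955237-20955451 and the RNASE3 stretch is chr14:20891186-20891366, both forward strand, and both lie outside annotated exons.
RNASE2: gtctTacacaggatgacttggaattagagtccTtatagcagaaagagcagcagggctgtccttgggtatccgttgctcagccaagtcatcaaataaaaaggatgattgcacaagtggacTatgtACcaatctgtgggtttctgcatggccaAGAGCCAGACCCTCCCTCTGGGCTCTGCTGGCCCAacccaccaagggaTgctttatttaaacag
RNASE3: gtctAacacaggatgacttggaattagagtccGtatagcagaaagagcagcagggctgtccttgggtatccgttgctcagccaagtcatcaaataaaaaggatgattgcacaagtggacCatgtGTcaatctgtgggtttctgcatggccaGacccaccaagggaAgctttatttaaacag
Of 181 aligned bases, 174 (96.1%) are identical, and RNASE2 carries an additional block that RNASE3 lacks. Their spliced transcripts are identical at 88.9% of 720 aligned bases, with a longest identical run of 67 bases. Reads inside such a run could be assigned to either gene, so the split between the pair is uncertain.

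Letter patterns of 4 myeloid factor families were searched on both strands of the 300-base windows. TTGCNNAA, a C/EBP pattern, was found in PRTN3, AZU1, RNASE2 and RNASE3, 4 of the 6 windows, and in 10.5% of all promoters. The RNASE2 and RNASE3 matches are the same site in the sequence that this duplicated pair shares, so their windows are not independent. GAGGAA, a PU.1 pattern, was found in PRTN3 and CTSG and in 27.9% of all promoters. AACNG, a MYB pattern, was found in 5 of the 6, CFD being the one without, and in 77.2% of all promoters. TGTGGT, a RUNX pattern, was in none of the 6 and in 13.1% of all promoters. Such matches are descriptions of letters and do not show binding.

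In THP-1 all 10 genes were expressed, over a 271-fold range, and together they made up 0.949% of the summed FPKM untreated and 0.877% with DAC. AZU1, which encodes azurocidin, led with 1788 and 1692 FPKM (untreated, then DAC, here and below), the 23rd and 26th highest gene of its library. ELANE, neutrophil elastase, stood at 676 and 551 FPKM, and SRGN, serglycin, at 548 and 587. PRTN3, proteinase 3, stood at 487 and 324 FPKM and CFD, complement factor D, at 296 and 269. These highest members are dominated by the chromosome 19 cluster, which held 76.1% of the members' summed FPKM untreated and 72.5% with DAC.

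RNASE2, the eosinophil-derived neurotoxin, stood next to CFD at 260 and 265 FPKM. CTSG, cathepsin G, stood at 154.5 and 158.8 FPKM, and LYZ, which cleaves bacterial cell walls, at 39.3 and 50.7. MPO, which makes hypochlorous acid and is a classic azurophil marker, was among the lowest at 6.60 and 6.82 FPKM. RNASE3, the eosinophil cationic protein, stood at 8.19 and 6.61 FPKM, so RNASE2 exceeded its near-duplicate 31.8-fold untreated and 40.1-fold with DAC. RNASE3 was above MPO untreated and below it with DAC, and SRGN and ELANE changed places as well. The other places in the order were kept, and with 1 library each no spread is known for any of these gaps.

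**Figure D1:**
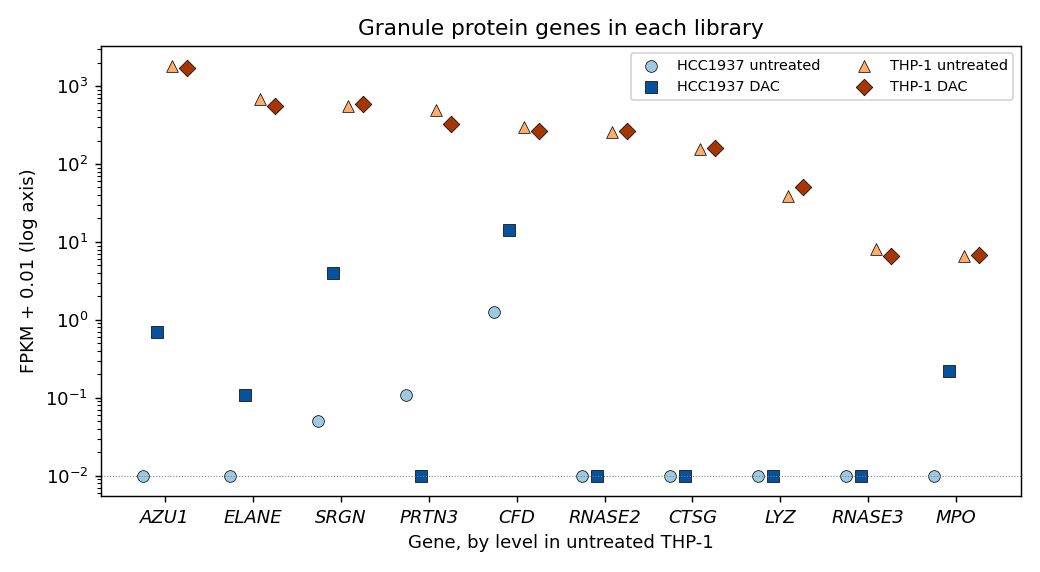
FPKM + 0.01 on a log axis for the 10 granule protein genes in each of the 4 libraries, 1 point per library, genes ordered by level in untreated THP-1. Points on the dotted line are listed at 0; THP-1 values run from 6.60 to 1788 FPKM, and in HCC1937 CFD (14.2 FPKM) and SRGN (3.99 FPKM) stand highest with DAC.

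In THP-1, 0 of the 10 genes were 2-fold higher and 0 were 2-fold lower with DAC, on log2(FPKM + 1), counting only genes that reached 1 FPKM in either library. That is the rule for a call used throughout, and log2 differences are on this scale, which understates those of low genes. Over all 12075 genes kept in THP-1, 1.14% were 2-fold higher and 0.364% 2-fold lower, so few calls would be made among any 10 genes. The members' median log2 difference was -0.03, beside 0.07 for all kept genes. Differences below 2-fold are therefore described by size and counting interval.

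PRTN3 had the largest difference of the 10, at 487 FPKM untreated against 324 with DAC. This is a log2 difference of -0.59, and the ratio of untreated to DAC was 1.51 with an interval of 1.46 to 1.55. In bulk cultures such as these, fewer expressing cells and less RNA per cell cannot be told apart. At a rule of 1.5-fold PRTN3 would be the only member called, and 1.00% of all kept genes were lower by that rule. That share includes genes that are not protein-coding. It was not computed for protein-coding genes alone, of which 0 of 10914 were 2-fold lower. At 50 FPKM or more in untreated THP-1 were 1665 genes, with microRNA genes such as MIR663A (log2 difference -0.82) included. Among these 1665, 12 were at least 1.5-fold lower and PRTN3 had the 11th lowest difference. ELANE, its neighbour in the cluster, differed less, at a log2 difference of -0.29 and an untreated to DAC ratio of 1.23 (1.20 to 1.26). ELANE ranked 108th lowest among the same 1665 genes.

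The remaining cluster genes were lower by smaller amounts. CFD had a log2 difference of -0.14 (untreated to DAC ratio 1.10, interval 1.06 to 1.14) and AZU1 one of -0.08 (1.06, interval 1.05 to 1.07). Genes of 50 FPKM or more in untreated THP-1 had a median log2 difference of -0.03. AZU1 sat close to that median, with 37.0% of these genes lower, though most of them are far less abundant than AZU1. The 4 cluster genes were thus all lower with DAC beyond counting error, by unequal amounts. AZU1 stood 3.67-fold above PRTN3 untreated and 5.23-fold above it with DAC. At such read numbers even small differences exceed counting error. The share of all genes lower by this measure was not computed, so nothing particular to the cluster is read from it.

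LYZ and SRGN differed in the other direction. LYZ had a log2 difference of 0.36, a ratio of DAC to untreated of 1.29 with an interval of 1.20 to 1.39, and SRGN one of 0.10 (1.07, interval 1.04 to 1.10). The SRGN value lay near the median of 0.07 over all kept genes. It fell to 0.02 with median-of-ratios and to 0.04 with upper-quartile scaling. Its interval was not recomputed under these scalings, so the direction of SRGN is not secure. With the same scalings LYZ had log2 differences of 0.29 and 0.31. For MPO (1.03, interval 0.907 to 1.18), CTSG (1.03, 0.985 to 1.07), RNASE2 (1.02, 0.974 to 1.07) and RNASE3 (0.807, 0.609 to 1.07) no difference was detectable beyond counting error. MPO, CTSG and RNASE2 have log2 differences of 0.04, 0.04 and 0.03 as deposited, and all 3 turn negative (-0.02, -0.03 and -0.05) with median-of-ratios scaling, as they do with upper-quartile scaling. In sum over the members, the FPKM with DAC was 0.917 times that untreated.

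**Figure D2:**
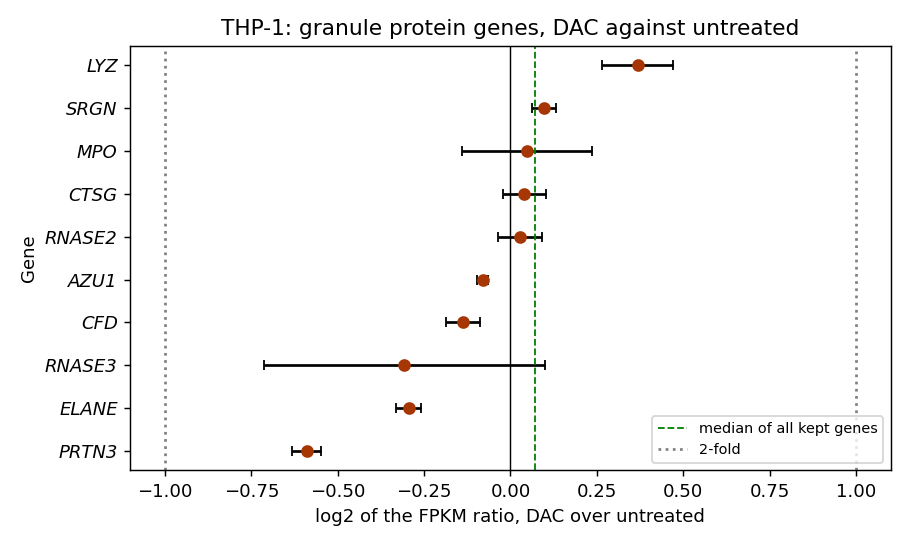
Ratio of FPKM with DAC to FPKM untreated in THP-1 on a log2 axis, 1 point per gene with its 95% counting interval; the dashed line is the median log2(FPKM + 1) difference of all kept genes (0.07) and dotted lines mark 2-fold. PRTN3, ELANE, CFD and AZU1 lie left of 0 with their intervals, LYZ and SRGN lie right of it, and no gene reaches 2-fold.

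The flanking genes of the cluster give the local setting. On the side of AZU1, MISP stood at 0.23 FPKM in both THP-1 libraries and PTBP1, a splicing regulator, at 318 and 306, while PLPPR3 has no THP-1 value. On the side of CFD, MED16, a Mediator subunit, stood at 40.7 and 32.8 FPKM, R3HDM4 at 48.8 and 45.4, and KISS1R, the kisspeptin receptor, at 0.38 and 0.31. MED16 had a log2 difference of -0.30, as large as that of ELANE, and that of PTBP1 was -0.06. The cluster genes stood above all flanking genes except PTBP1, which lay between PRTN3 and CFD in both THP-1 libraries. In HCC1937 PTBP1 stood at 77.1 and 53.03 FPKM, MED16 at 13.4 and 9.16, and PLPPR3 at 0.16 and 0.81. None of the flanking genes was called where it has values.

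**Figure D3:**
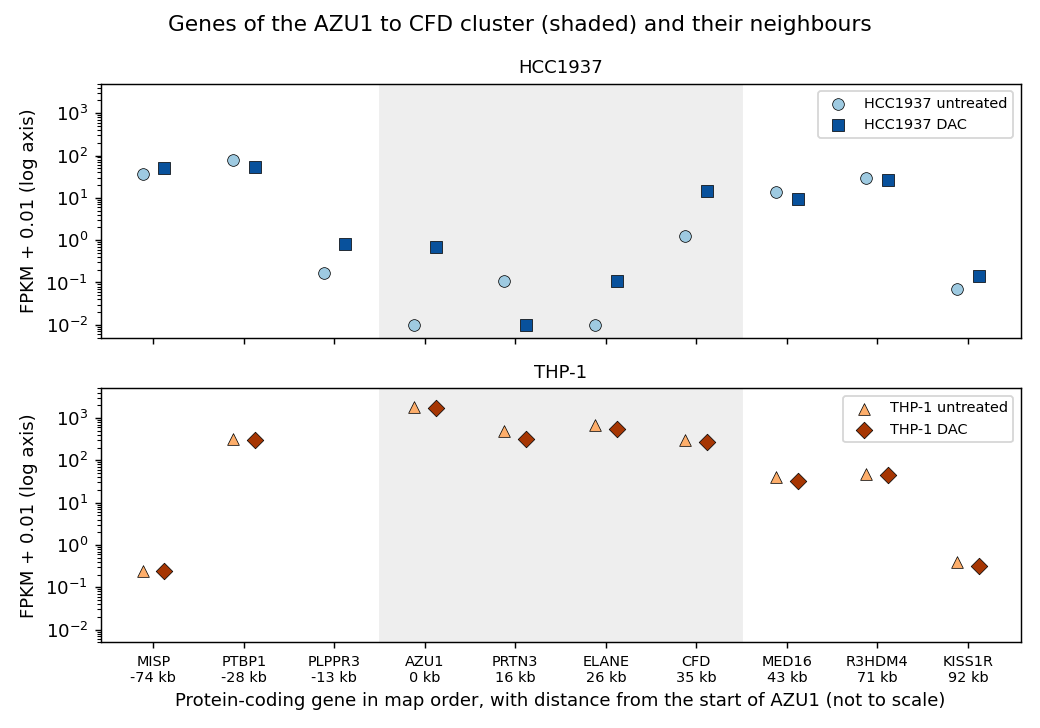
FPKM + 0.01 on a log axis for the AZU1 to CFD cluster (shaded) and the 3 protein-coding genes on each side, in map order, 1 point per library; 0.01 means listed at 0. In HCC1937 CFD goes from 1.24 to 14.2 FPKM while PRTN3 and ELANE stay at 0.1 or below; in THP-1 the 4 cluster genes stand from 269 to 1788 FPKM.

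In HCC1937 the granule protein genes were silent or nearly so untreated, with 7 of 10 listed at 0 and a summed level of 1.38 FPKM. With DAC the sum was 19.2 FPKM and 5 were listed at 0. Of all 60612 table lines, 38009 were listed at 0 untreated and 33899 with DAC. CFD went from 1.24 to 14.2 FPKM, about 28 reads against 326, a log2 difference of 2.77 and a ratio of 11.5 with an interval of 7.90 to 17.8. SRGN went from 0.04 to 3.99 FPKM, about 1 read against 91, a ratio of reads of 90.9 with an interval of 15.9 to 3630 and a log2 difference of 2.26. These 2 were the only members that passed 1 FPKM in either library, and both were called higher. SRGN passed only through the DAC library, so it had to differ. Among the 14058 genes kept in HCC1937, 10.3% were 2-fold higher and 1.44% 2-fold lower, and these differences are to be set against a median of 0.19 over every kept gene.

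AZU1 and MPO were seen at a lower level in the HCC1937 DAC library and were listed at 0 untreated. AZU1 stood at 0.69 FPKM, about 23 reads against 0, and the interval of its ratio begins at 5.74. MPO stood at 0.21 FPKM, about 14 reads against 0, and its interval begins at 3.31. Both are below 1 FPKM and were not called. ELANE (0 and 0.1 FPKM) and PRTN3 (0.1 and 0 FPKM) rest on about 2 reads each, so no difference was detectable at this depth. RNASE2, RNASE3, CTSG and LYZ were listed at 0 in both HCC1937 libraries, and 3 reads would correspond to 0.0908 FPKM for LYZ and 0.223 FPKM for RNASE3.

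Myeloid markers in the HCC1937 libraries are given beside these values. The summed level of the 20 monocytic and progenitor markers was 22.7 FPKM untreated and 28.9 with DAC, against 1435 and 1487 in THP-1. CD14 (8.69 and 7.06) and LYN (11.5 and 10.7) held most of the HCC1937 sum. The other 18 summed to 2.51 FPKM untreated and 11.1 with DAC. Of these 18, 12 had a higher value with DAC, 4 a lower one and 2 were equal. The same count was not made over all genes, so nothing is read from it. TYROBP stood at 0 and 3.24 FPKM, CSF1R at 0.22 and 1.54, CSF2RA at 0.24 and 1.28, ITGAM at 0.68 and 1.71, CSF3R at 0.01 and 0.67, CD4 at 0.06 and 0.63 and SPI1, which encodes PU.1, at 0.08 and 0.5. PTPRC, the pan-leukocyte marker CD45, stood at 0.03 and 0.09 FPKM, FCER1G at 0.22 and 0.11 and CD33 at 0.01 and 0. Their part in the values of the granule genes was not tested. As a share of the DAC-treated THP-1 level, the HCC1937 DAC level was 5.29% for CFD, 3.08% for MPO, 0.680% for SRGN, 0.0408% for AZU1, 0.0181% for ELANE and 0% for the other 5. Of 12 genes at 200 FPKM or more in both THP-1 libraries and at 0 in untreated HCC1937, 5 were above 0 there with DAC. AZU1 and ELANE were among them. The others were CLEC11A (3.2 FPKM, 0.402% of its DAC-treated THP-1 level), GMFG (1.38 FPKM, 0.552%) and the Y-linked RPS4Y1 (0.05 FPKM, 0.0159%). The share of RPS4Y1 was close to that of ELANE, and the origin of such low values was not tested.

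Between the untreated lines, all 10 genes were at least 2-fold higher in THP-1, against 44.2% of the 12942 genes kept in that comparison. All but CFD passed 1 FPKM through THP-1 alone, which nearly fixes that count, so nothing is read from it. The THP-1 columns appear to use other gene lengths, so these levels are compared roughly. The 7 members listed at 0 in HCC1937 were at least 36.8-fold (RNASE3) to at least 19882-fold (AZU1) higher in THP-1, set against a floor of 3 reads per library. CFD was the member with the highest untreated level in HCC1937, and its THP-1 level was 239-fold higher.

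Over both lines, limma with the line as a block was fitted to 13984 genes. These had values in every library and reached 1 FPKM in at least 1 of them. The fit called 0 genes at an adjusted p below 0.05, and 565 had an unadjusted p below 0.05. By limma with Benjamini-Hochberg adjustment, SRGN had a mean log2 difference of 1.18 (higher in both lines, adjusted p = 0.695), CFD one of 1.31 (higher in HCC1937, lower in THP-1, adjusted p = 0.695) and PRTN3 one of -0.36 (lower in THP-1, with about 2 reads against 0 in HCC1937, adjusted p = 0.695). The background share called by that fit was 0%. The fit has 1 residual degree of freedom and treats 2 different doses and times as one treatment.

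Other granule genes in THP-1 gave few calls. Of 33 listed genes for azurophil hydrolases and secretion, 26 were kept, 1 was higher and 0 lower, at a median of 0.11. The higher gene was UNC13D, which primes granules for release (3.09 and 12.4 FPKM), and CTSD, a lysosomal protease, stood at 187 and 245. Genes of the later specific and gelatinase granules had 9 of 21 kept, 1 higher and 0 lower, at a median of 0.42. MMP9, gelatinase B, was the higher one (7.97 and 19.8 FPKM), and CHI3L1, a chitinase-like protein of specific granules, stood at 1175 and 1692. Cytotoxic granule genes had 3 of 9 kept, of which PRF1, perforin, was higher (0.04 and 1.55 FPKM, kept through the DAC library alone). Eosinophil and mast cell granule genes had 2 of 15 kept and none called, with PRG2, the major basic protein, at 1.03 and 1.29 FPKM. EPX, eosinophil peroxidase, stood at 0.08 and 0.11 FPKM and CLC was listed at 0 in both, beside RNASE2 at 260 and 265.

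Regulators of granule genes in THP-1 had 23 of 27 kept and none called, at a median of -0.13. The largest differences among them were MYC (129 and 80.1 FPKM), IRF8, a factor of the monocyte lineage (232 and 160.5 FPKM), and CEBPE, a factor of late granule genes (2.39 and 4.08 FPKM). Inhibitors of the granule proteases had 13 of 19 kept and none called (median 0.17), with SERPINA1, the main plasma inhibitor of elastase, at 1.51 and 2.65 FPKM and SLPI, the secretory leukocyte inhibitor, at 15.4 and 21.8. Genes that build the glycosaminoglycan chains of serglycin (19 of 21 kept, median 0.02), of haem synthesis and folding for MPO (15 of 15 kept, median 0.06) and of the alternative complement pathway in which CFD acts (5 of 10 kept, median 0.22) had none called. The initiating enzyme XYLT1 stood at 4.15 and 2.63 FPKM, HMOX1, which degrades haem, at 11.1 and 6.56, and properdin (CFP) at 4.71 and 7.04.

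In HCC1937 the same lists are read against the 10.3% of kept genes that were higher and the 1.44% that were lower. Of 4 kept complement genes, 2 were lower and 0 higher, at a median of -0.63: C3 stood at 162 and 76.3 FPKM, and CFB, whose product is cleaved by factor D, at 15.0 and 5.99. CD55, which limits complement at the cell surface, stood at 15.7 and 30.9 FPKM and was not called. For serglycin, 19 of 21 chain-building genes were kept at a median of 0.06 and 1 was higher, CHST13, a chondroitin sulfotransferase (0.08 and 1.81 FPKM), with XYLT2 at 14.0 and 6.97. Specific and gelatinase granule genes had 7 of 21 kept, with 3 higher, among them CAMP, the cathelicidin precursor (0 and 2.94 FPKM), and PTX3 (3.15 and 8.30), and 1 lower, LCN2, an iron-scavenging lipocalin (2133 and 696). Among the inhibitors 16 of 19 were kept, with CST3, cystatin C, higher (0 and 12.9 FPKM) and SERPINA3, antichymotrypsin and an inhibitor of CTSG, lower (2.49 and 0.46 FPKM). Regulators had 18 of 27 kept, with CEBPA (2.43 and 9.09 FPKM) and HOXA9 (0.33 and 4.91) higher and CEBPD (90.6 and 32.3) lower. Azurophil hydrolases had 25 of 33 kept and 1 higher, UNC13D (8.99 and 22.2 FPKM), and haem and folding genes 15 of 15 kept and 1 higher, HMOX1 (4.53 and 17.8). GZMM, a granzyme and the single kept gene of 9 cytotoxic granule genes, stood at 0.28 and 3.22 FPKM and was called higher. GZMM, CAMP, CST3, HOXA9 and CHST13 passed 1 FPKM through the DAC library alone, and SERPINA3 through the untreated one alone, which favours a call in that direction. The single kept eosinophil and mast cell gene of 15, GATA2, had a log2 difference of 0.86 and was not called.

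Among 74 other genes with at least 50 FPKM in untreated THP-1 and under 1 FPKM in both HCC1937 libraries, the 5 with the lowest THP-1 difference were listed. They were picked on that difference, so they show no likeness to the members as a set. CFD, SRGN, LYZ, MPO and RNASE3 themselves fall outside these limits. The protein-coding genes among the 5 lowest were IRF8 (log2 difference -0.53) and FUT4, a fucosyltransferase that makes the myeloid CD15 epitope (76.6 FPKM untreated and 59.2 with DAC, -0.36). PRTN3, at -0.59, was lower than both and ELANE, at -0.29, was not. The other 3 were the microRNA genes MIR663A (-0.82), MIR4523 (-0.44) and MIR1281 (-0.42).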

How the data were processed

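The deposited table holds FPKM computed by the authors for 4 libraries, 1 per group. No unit is given in it, and FPKM was inferred from the values: they have 2 decimals, and value times GENCODE 29 exon length falls within 0.1 of whole multiples of a common step in 92.2% to 94.7% of short genes (50 to 250 bp, under 10 reads). For genes of 400 to 800 bp that share was 85.0% and 83.3% in HCC1937 but 47.9% and 55.3% in THP-1, so the THP-1 columns rest on other gene lengths. Of 60612 table lines, 37039 have no THP-1 value. The submitters' processing notes name hg38 and the tools HTSeq, STAR, cutadapt and FastQC; versions, annotation, strand use and the step to FPKM are not given in the sources used here.

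Lines of repeated symbols (1079) were left out. Reads per gene were estimated from FPKM, exon length and the step, and gave exact Clopper-Pearson 95% intervals of a ratio. A gene was kept when either library of a pair reached 1 FPKM, and called at 2-fold on log2(FPKM + 1). limma 3.58.1 (R 4.3.3) was fitted over both lines with an intensity trend. Other steps ran in Python 3.11.15 with scipy 1.17.1, numpy 2.4.6, pandas 2.3.3, matplotlib 3.10.9 and Biopython 1.88. Median-of-ratios (genes of 1 FPKM or more in both libraries) and upper-quartile scaling, other pseudocounts, filters and sizes of change were tried. Named were all members, up to 3 kept genes of each of 9 lists per line with the largest difference, and 3 flanking genes a side. Also named were the 5 genes of lowest THP-1 difference under the limits given above and markers from 6 lists. Single markers, and EPX and CLC, were chosen after their values were seen. The procedure was tested on simulated data. The engineered genotype and the check of it are not reported here. The members and lists were chosen with earlier results of these data known.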

Additional observations from a re-analysis of the deposited data

Results flagged for a closer look

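With 1 library per group, the values of 3 members had opposite signs in the 2 lines, and the difference between the lines was not tested. The share of all genes with opposite signs was not computed, so nothing is read from this count. CFD had a log2 difference (DAC minus untreated, on FPKM + 1) of 2.77 in HCC1937 and -0.14 in THP-1. AZU1 had one of 0.76 in HCC1937, on about 23 reads against 0, and -0.080 in THP-1. ELANE had one of 0.14 in HCC1937, and -0.29 in THP-1; about 2 reads against 0 in HCC1937 show no direction there. Dose and time also differed between the lines, so their part cannot be told apart from that of the line.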

How the results depend on the processing

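No member was called in THP-1 under other scalings, pseudocounts or filters, and 1 (PRTN3) was lower at 1.5-fold. Few genes of any kind were called there: of 12075 kept, 3 were higher and 0 lower with a pseudocount of 10. At 1.5-fold 398 were higher and 121 lower. In HCC1937, 1 of the 2 higher members remained, CFD, with a pseudocount of 10 or with genes of at least 5 FPKM. Among all kept genes, 131 of 14058 and 550 of 7809 were higher in these 2 settings. The HCC1937 median log2 difference of kept members (2.51) rests on 2 genes, CFD and SRGN, and SRGN passed through the DAC library alone. It was 2.43 under median-of-ratios and 2.33 under upper-quartile scaling, beside 0.07 and -0.06 for all kept genes. It was 4.14 with a pseudocount of 0.1, 0.79 with a pseudocount of 10 and 0.52 without a filter, where 6 members entered. The limma fit called 0 of all 13984 genes in every setting, so the 0 among members says nothing particular to them. The counts of members whose THP-1 interval lay below 1 (4) or above 1 (2) did not move with the estimated reads cut to 0.5 of their number, an alternative chosen after seeing the data. These intervals were not recomputed under other scalings, and the same counts were not made over all genes. All 10 members stayed at least 2-fold higher in untreated THP-1 than in untreated HCC1937 in the settings run, except that a pseudocount of 10 left 8 (MPO and RNASE3 were lost), while higher genes over all genes dropped from 5724 to 3551 under median-of-ratios scaling, with 2924 lower in place of 1899. Over all HCC1937 genes that scaling gave 1238 higher and 293 lower in place of 1452 and 202. Among protein-coding genes alone, 0.321% were higher and 0% lower in THP-1.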
